A study of Mus musculus with 6 samples.

Results

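The 10 genes described here encode transcription factors and 1 coactivator that B-cell development depends on: Pax5, Ebf1, Pou2af1, Ikzf1, Ikzf3, Foxo1, Lef1, Bach2, Irf4 and Irf8. They were taken by name from the annotation of the array, using only probe sets that name a single gene, and all 10 of them were among the 18193 genes measured. Where a gene had several probe sets, the one of highest average level stands for it, and the others are shown beside it (26 probe sets in all). By textbook knowledge, Pax5, Ebf1 and Pou2af1 are B-only factors among blood cells (3 genes), although marrow stroma and fat precursors also make Ebf1. The other 7 genes are shared with T cells, NK cells, myeloid cells, endothelium or other tissues.

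The 6 samples were cells sorted from collagenase-digested fore and hind limbs of mice at postnatal day 3, with the limbs of a litter pooled. The labels give a wild-type genotype and, in the protocol, GFP-labelled mice. Both gates excluded CD45, the leukocyte surface phosphatase encoded by Ptprc, and Ter119, an antigen of red-cell precursors. The Tie2-negative population (3 arrays) was also negative for Itgav (integrin alpha V) and Tie2, and the Tie2-positive population (3 arrays) was low for Itgav and positive for Tie2, the angiopoietin receptor of endothelium encoded by Tek. No source used here says that the replicates came from different litters, so the p-values measure only how far these samples spread, and that spread may be technical. All values are log2 array values after quantile normalization, and a change is Tie2-positive minus Tie2-negative. A gene was called when its adjusted p (limma, Benjamini-Hochberg over all 18193 genes) was under 0.05.

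B cells arise from lymphoid progenitors by stepwise commitment. Ikzf1 (Ikaros) opens the lymphoid programme, Ebf1 with the E protein E2A and Foxo1 starts the B-cell programme, and Pax5 then holds the cells to the B lineage. The pre-B receptor next signals through Blnk to Irf4 and its relative Irf8, with Ikzf3 (Aiolos), and these factors end pre-B proliferation and allow light chain rearrangement. Lef1 is a nuclear partner of beta-catenin in pro-B cells, Bach2 is a repressor that holds off plasma cell fate, and Pou2af1 (OBF-1) is the coactivator of octamer-binding proteins. Several of these genes have separate work outside the B lineage, such as Foxo1 in endothelium and Irf8 in monocytes and dendritic cells.

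The arrays were not alike within the Tie2-positive population. Correlations over all genes ran from 0.969 to 0.983 between the Tie2-negative arrays and from 0.898 to 0.980 between the Tie2-positive ones, where replicate 1 stood apart. Tek checked the labels, with 4.81, 4.79 and 4.90 in the Tie2-negative and 12.06, 10.86 and 9.80 in the Tie2-positive replicates 1, 2 and 3. Ptprc, whose product both gates excluded, gave 9.52, 10.41 and 9.42 in the Tie2-negative arrays, and 4.87, 9.95 and 11.23 in the Tie2-positive ones. The mean level of 12 endothelial markers was 5.86 to 5.97 in the Tie2-negative arrays and 11.37, 9.82 and 8.72 in Tie2-positive replicates 1, 2 and 3. That of 13 neutrophil and monocyte markers was 6.29 to 7.72 in the Tie2-negative arrays and 5.88, 9.64 and 11.50 in Tie2-positive replicates 1, 2 and 3. Where leaving out Tie2-positive replicate 1 changed a call, the value without it is given beside the result. In such bulk samples, fewer cells of a type and less RNA per cell cannot be told apart.

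Promoter stretches are shown for the members whose array values carry the results. The first pair belongs to the called genes, and the other 3 belong to genes whose values split the Tie2-positive arrays. The sequences are those of RefSeq (GRCm38.p6), which held a promoter for 9 of the 10 members, and each shows the 250 bases before a start site, 5′ to 3′ on the gene's strand. Capitals mark matches, on either strand, to 1 of 7 motifs: ATGCAAAT (octamer), CCCNNGGG (EBF core), CAGGTG (E-box of E2A), TGGGAA (Ikaros core), GTAAACA (FOXO), CTTTGA (TCF/LEF) and GAAANNGAA (IRF). Each of these 5 stretches holds at most 1 match, so none overlap.
Pou2af1 promoter, chr9:51213440-51213689, + strand: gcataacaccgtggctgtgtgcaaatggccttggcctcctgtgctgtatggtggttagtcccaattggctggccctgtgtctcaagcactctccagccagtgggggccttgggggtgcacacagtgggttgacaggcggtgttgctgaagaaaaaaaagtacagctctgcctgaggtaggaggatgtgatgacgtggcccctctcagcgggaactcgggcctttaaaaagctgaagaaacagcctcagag
Irf4 promoter, chr13:30748983-30749232, + strand: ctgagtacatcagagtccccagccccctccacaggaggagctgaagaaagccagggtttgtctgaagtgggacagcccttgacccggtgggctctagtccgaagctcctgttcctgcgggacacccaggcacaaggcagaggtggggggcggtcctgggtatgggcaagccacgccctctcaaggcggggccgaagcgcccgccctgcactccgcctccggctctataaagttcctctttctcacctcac
Ebf1 promoter, chr11:44617850-44618099, + strand: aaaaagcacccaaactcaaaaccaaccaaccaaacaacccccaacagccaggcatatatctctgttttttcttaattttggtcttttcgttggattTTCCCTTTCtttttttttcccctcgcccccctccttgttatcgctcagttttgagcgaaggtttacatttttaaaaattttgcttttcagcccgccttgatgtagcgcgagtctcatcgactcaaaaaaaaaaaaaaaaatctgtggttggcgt
Foxo1 promoter, chr3:52268087-52268336, + strand: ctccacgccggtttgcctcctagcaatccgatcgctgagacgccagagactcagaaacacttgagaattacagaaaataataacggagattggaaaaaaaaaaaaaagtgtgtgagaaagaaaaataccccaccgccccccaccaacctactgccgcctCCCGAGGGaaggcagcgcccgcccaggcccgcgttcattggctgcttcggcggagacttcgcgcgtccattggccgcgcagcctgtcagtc
Bach2 promoter, chr4:32417185-32417434, + strand: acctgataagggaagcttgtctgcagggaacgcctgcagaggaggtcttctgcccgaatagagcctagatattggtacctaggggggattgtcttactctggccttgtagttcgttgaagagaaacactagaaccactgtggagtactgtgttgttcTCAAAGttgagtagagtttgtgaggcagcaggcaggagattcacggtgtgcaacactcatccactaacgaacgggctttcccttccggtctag
The Pou2af1 and Irf4 stretches hold none of these letters. The Ebf1 stretch holds an IRF match, the Foxo1 stretch an EBF core and the Bach2 stretch a TCF/LEF match. A second Ebf1 start site has a stretch, not shown, with no IRF match and an Ikaros core, which 21.6% of all stretches hold. Over 32851 promoter stretches of this length in the same table, the share with a match was 7.13% for the IRF letters, 11.8% for the EBF core and 13.8% for TCF/LEF. Of the 15 stretches of the members, 1, 2 and 2 held them in that order. A match is a description of the letters and not a bound site.

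Of the 10 members, 2 fell in the Tie2-positive population, Pou2af1 and Irf4, and 0 rose (limma, also 0 at an unadjusted p under 0.05). Over all genes limma called 7.39%, with 2.53% lower and 4.86% higher. At an unadjusted p under 0.05 limma gave 3 of the 10, the third being Lef1. The median change over the members was -1.59, against -0.11 over all genes. Of the 10 changes 9 were negative, as were 11076 of those of all 18193 genes. The 3 values of one population lay apart from those of the other in 4 members (Pou2af1, Irf4, Lef1 and Ikzf3), each lower in the Tie2-positive arrays. Among all genes 39.1% showed such a gap (23.9% lower, 15.2% higher), a share close to 4 of 10. Without Tie2-positive replicate 1 limma called 4 members lower (Pou2af1, Irf4, Lef1 and Ebf1). In that fit calls also rose over all genes, with 652 genes lower, against 461 lower with no array left out. Without Tie2-negative replicate 1 or 2 limma called 0 members (3 at an unadjusted p under 0.05 in each case) and 0 of all genes. Every call named here is thus lost without Tie2-negative replicate 1 or 2.

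**Figure D1:**
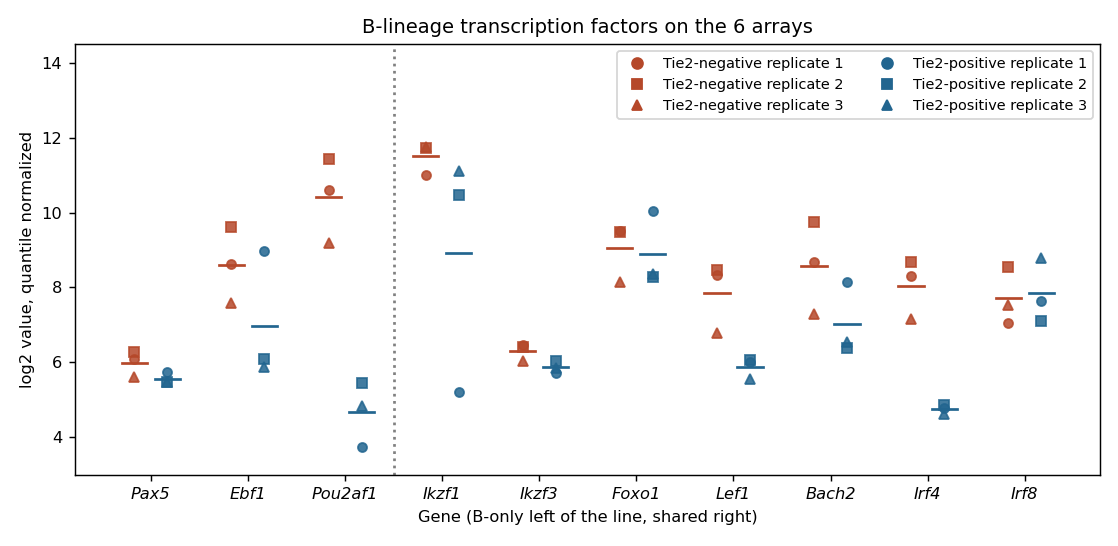
Log2 value (vertical axis) of each of the 10 factors on the 6 arrays, with Tie2-negative arrays in red, Tie2-positive arrays in blue, a shape per replicate and a bar for the mean of each population. Pou2af1 and Irf4 were at most 5.44 in all Tie2-positive arrays and above 7 in all Tie2-negative ones, while Ikzf1 was low in Tie2-positive replicate 1 alone.

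In the B-only class 1 of 3 members fell (Pou2af1), and in the shared class 1 of 7 (Irf4). The median change was -1.62 over the B-only and -1.55 over the shared members, a difference of -0.073 with no test, since genes are not replicates. This difference was -1.90 without Tie2-positive replicate 1, and between -0.16 and 0.24 without any other single array. It was -2.13 among genes above the 40th percentile of mean level, where Pax5 drops out, and -1.34 with array weights. It turned to 0.22 when all probe sets of a gene were averaged.

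Among the B-only factors, Pou2af1 showed the widest separation. Its single probe set read 10.61, 11.43 and 9.20 in Tie2-negative replicates 1, 2 and 3, and 3.75, 5.44 and 4.83 in the Tie2-positive ones. The populations did not overlap, and Tie2-positive replicate 1 was the lowest array. The Tie2-positive values lie low on the scale of the arrays, and the deposited values carry no detection calls, so the size of this change was not checked against background. The change was -5.74 ± 0.65 (SE, with 3 arrays in each population; limma adjusted p = 0.0105).

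Ebf1, the pioneer factor of B-cell commitment, split the Tie2-positive arrays. It read 8.62, 9.60 and 7.60 in Tie2-negative replicates 1, 2 and 3, and 8.98, 6.09 and 5.88 in the Tie2-positive ones. Replicate 1 of the Tie2-positive population thus lay within the Tie2-negative range, while its replicates 2 and 3 lay below it. The change of -1.62 ± 0.90 (SE) did not pass (limma adjusted p = 0.273, 95% interval -3.77 to 0.52). Without Tie2-positive replicate 1 Ebf1 passed, at -2.62 (adjusted p = 0.0217), as it did with array weights (-2.59, adjusted p = 0.0159). With replicate 1 as the single Tie2-positive array the sign turned to 0.37 (adjusted p = 0.765). All 5 Ebf1 probe sets were highest in replicate 1 among the Tie2-positive arrays, although their changes ran from -1.62 to 0.16.

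Pax5, the factor that maintains B-cell identity, measured 6.10, 6.27 and 5.62 in the Tie2-negative and 5.73, 5.49 and 5.49 in the Tie2-positive arrays. The ranges overlapped, and all 6 values lay below 6.55, the median of all gene values on the arrays. Its change of -0.43 ± 0.21 (SE) did not pass (limma adjusted p = 0.219, 95% interval -0.92 to 0.06). A second probe set read 4.76 to 5.29 on all 6 arrays and moved by -0.033. The deposited values carry no detection calls, so whether Pax5 lay above background was not analysed. Cd79a and Blnk, which lie under Pax5 control in B-cell precursors, both fell on these arrays, as given with the early B genes.

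Irf4, a shared factor of B cells, plasma cells, T cells and dendritic cells, was the other member that fell. The probe set used read 8.30, 8.69 and 7.16 in the Tie2-negative replicates, and 4.77, 4.87 and 4.63 in the Tie2-positive replicates. Its Tie2-positive values are also low on the scale. No Tie2-positive array came within 2 log2 units of a Tie2-negative one, and the Tie2-positive SD was 0.12. The change was -3.29 ± 0.38 (SE; limma adjusted p = 0.0109). The other Irf4 probe set did not follow: it read 4.92 to 5.94 in the Tie2-negative and 5.09 to 5.62 in the Tie2-positive arrays, a change of -0.087. Over the mean of both probe sets Irf4 still passed, at -1.69 (adjusted p = 0.0272).

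Lef1 lay at the threshold. Its values were 8.33, 8.47 and 6.77 in the Tie2-negative and 6.01, 6.05 and 5.57 in the Tie2-positive replicates, with no overlap. The change of -1.98 ± 0.46 (SE) did not pass (limma adjusted p = 0.0510). It passed without Tie2-positive replicate 1 (adjusted p = 0.0449), without Tie2-negative replicate 3 (0.0214), over the mean of its probe sets (-1.82, 0.0484), with array weights (0.0133) and among genes above the 40th percentile of mean level (0.0425), and over all its alternatives the adjusted p ran from 0.0133 to 0.160. The second Lef1 probe set moved by -1.66, also with no overlap.

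Bach2 resembled Ebf1 in its order of arrays. It read 8.68, 9.74 and 7.30 in the Tie2-negative and 8.14, 6.37 and 6.54 in the Tie2-positive replicates, so that Tie2-positive replicate 1 lay within the Tie2-negative range. The change was -1.55 ± 0.71 (SE; limma adjusted p = 0.204, 95% interval -3.25 to 0.15). With array weights it passed, at -2.28 (adjusted p = 0.0228), and it was -0.97 without Tie2-negative replicate 2 and -0.43 with replicate 1 as the single Tie2-positive array, neither of which passed. All 3 Bach2 probe sets were highest in replicate 1 among the Tie2-positive arrays.

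Foxo1, a forkhead factor that drives Rag expression in B-cell precursors and restrains vessel growth in endothelium, had its highest value in Tie2-positive replicate 1. The values were 9.51, 9.48 and 8.15 in the Tie2-negative replicates, and 10.04, 8.27 and 8.37 in the Tie2-positive replicates. The populations overlapped, with a change of -0.15 ± 0.59 (SE; limma adjusted p = 0.878, 95% interval -1.55 to 1.24) that turned to 0.04 with arrays centred on their medians. Against the Tie2-negative arrays, Tie2-positive replicate 1 by itself gave a change of 0.99 (adjusted p = 0.288). All 4 Foxo1 probe sets were highest in replicate 1 among the Tie2-positive arrays.

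Ikzf1, which is made by nearly all leukocytes and their progenitors, gave the reverse order. It read 11.01, 11.72 and 11.76 in the Tie2-negative replicates, and 5.21, 10.46 and 11.12 in the Tie2-positive replicates. Tie2-positive replicate 3 lay within the Tie2-negative range, replicate 2 just below it, and replicate 1 lay far below every other array. The change of -2.57 ± 1.45 (SE) did not pass (limma adjusted p = 0.282, 95% interval -6.03 to 0.89), and leaving out Tie2-positive replicate 1 brought it to -0.71 (adjusted p = 0.174). With replicate 1 as the single Tie2-positive array it was -6.29 (adjusted p = 0.000165). The other Ikzf1 probe set did not show the deep drop in replicate 1. It read 6.94, 7.04 and 6.99 in the Tie2-negative replicates, and 6.32, 6.65 and 6.53 in the Tie2-positive replicates. Its change of -0.49 was not called, and all its Tie2-positive values lay below the Tie2-negative ones. Ptprc, whose values are given above, was likewise lowest in Tie2-positive replicate 1.

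Ikzf3, a lymphoid relative of Ikzf1, measured 6.45, 6.41 and 6.05 in the Tie2-negative and 5.72, 6.04 and 5.85 in the Tie2-positive replicates. The populations touched without overlapping, and the change of -0.43 ± 0.18 (SE) did not pass (limma adjusted p = 0.176). Its other probe sets moved by -0.98 and -0.16, and neither was called. Irf8, a factor of B cells, monocytes and dendritic cells, read 7.04, 8.55 and 7.53 in the Tie2-negative and 7.63, 7.11 and 8.80 in the Tie2-positive replicates. It was the single member with a positive change (0.14 ± 0.54, SE; limma adjusted p = 0.882, 95% interval -1.15 to 1.42), which turned to -0.34 without Tie2-positive replicate 3, its highest array, to -0.19 without Tie2-negative replicate 1 and to -0.61 with array weights. The other Irf8 probe set moved the other way, by -0.10, and was not called.

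**Figure D2:**
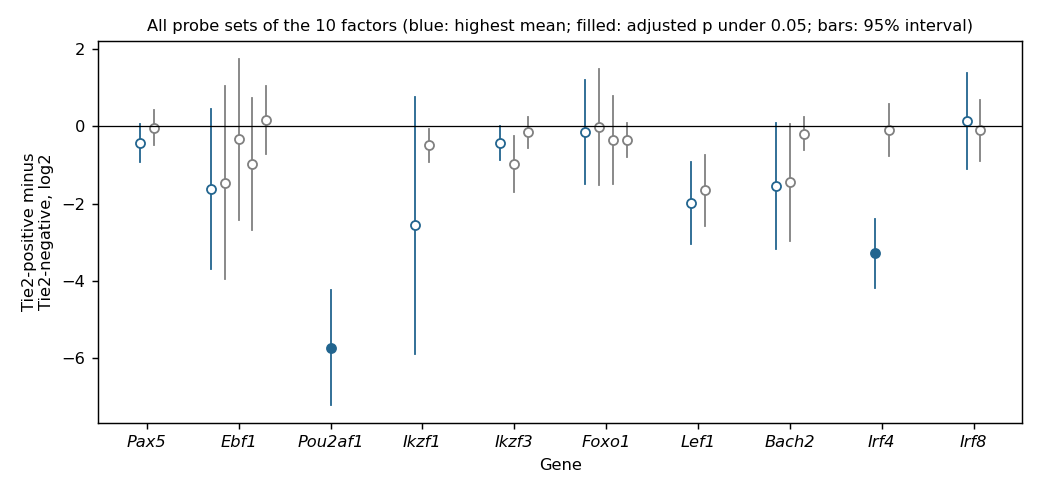
Change (vertical axis, log2, Tie2-positive minus Tie2-negative) of all 26 probe sets of the 10 factors with 95% intervals from limma, adjusted over all 45037 probe sets. Filled points were called: 1 probe set each of Pou2af1 and Irf4, both among those with the highest mean (blue).

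Over the arrays 3 orders recurred among the members, which were read from the values and carry no test. Pou2af1, Irf4, Lef1 and, by a narrow gap, Ikzf3 were lower in every Tie2-positive array than in any Tie2-negative one. Pax5 and Irf8 showed none of the 3 orders. Ebf1, Foxo1 and Bach2 were higher in Tie2-positive replicate 1 than in its replicates 2 and 3 by at least 1 log2 unit (3 of 10 members, against 6.26% of all genes). The endothelial marker mean was also highest in that array, at 11.37, and so was the stromal marker mean, at 7.17 against 6.40 and 6.49. The stromal markers did not all share this order. Among the Tie2-positive arrays, Pdgfrb and Col1a2 were highest in replicate 3. All other measured stromal markers, Cxcl12, Lpl and Ebf3 among them, were highest in replicate 1. Some led clearly, such as Lepr (7.22, 6.06 and 5.75 in replicates 1, 2 and 3), and some narrowly, such as Prrx1 (5.34, 5.29 and 5.23). By the probe sets used, Ikzf1 and Pou2af1 were lower in Tie2-positive replicate 1 than in replicates 2 and 3 by at least 1 (2 of 10 members, against 7.10% of all genes). So was the neutrophil and monocyte mean, at 5.88 against 9.64 and 11.50. The part of endothelial, stromal or myeloid cells in these orders was not tested.

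**Figure D3:**
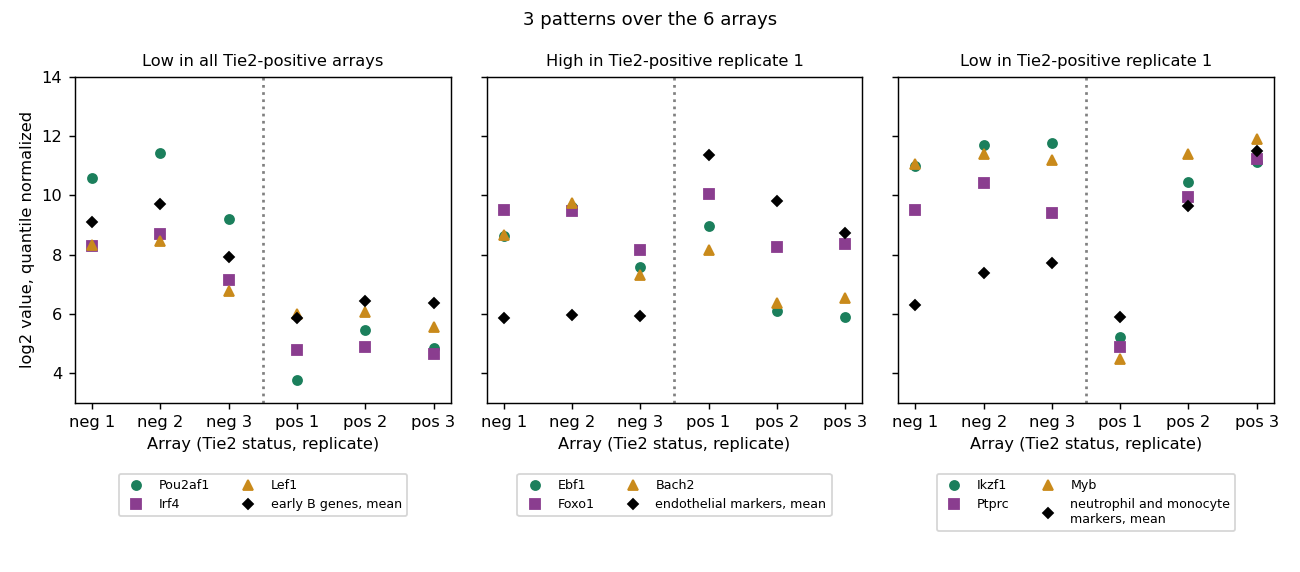
Log2 values (vertical axis) of members on the 6 arrays (neg and pos give the Tie2 status, followed by the replicate), with Ptprc and Myb beside Ikzf1, and as black diamonds the mean of a marker list. Pou2af1, Irf4 and Lef1 were low in all Tie2-positive arrays, Ebf1, Foxo1 and Bach2 were high in Tie2-positive replicate 1, and Ikzf1 was low there at 5.21.

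The Tie2-negative arrays also differed, and in 1 direction for these genes. In 6 of the 10 members (Ebf1, Pou2af1, Foxo1, Lef1, Bach2 and Irf4) replicate 3 lay at least 1 log2 unit below both other Tie2-negative arrays, as it did in 0.610% of all genes. In 0 members did it lie that far above them (0.709% of all genes). Ikzf1, with 11.76 in that array, did not share the drop. Among 18 early B genes, 11 showed the same drop, including Rag1 (9.74, 10.15 and 7.67 in Tie2-negative replicates 1, 2 and 3) and Il7r (9.32, 9.72 and 7.50). This comparison of arrays was chosen after the values were seen.

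Genes of early B cells, some of them known targets of these factors, were also lower in the Tie2-positive population. Ebf1, Foxo1 and Pax5 themselves did not pass, and a link between the factors and these genes was not tested. Of 18 measured early B genes 11 fell and 0 rose, where limma called 2.53% of all genes lower and 4.86% higher. All 18 changes were negative (median -2.56, against -0.11 over all genes), as were 11076 of those of all 18193 genes. The list mean was 9.12, 9.70 and 7.92 in the Tie2-negative and 5.85, 6.42 and 6.38 in the Tie2-positive replicates. Rag1, a recombinase subunit under Foxo1 control, fell by 5.81 ± 0.61 (SE; limma adjusted p = 0.0104) on the log2 scale, to Tie2-positive values of 3.23 to 3.57, which are low on the scale as well. The surrogate light chain genes Vpreb1 (-4.95 ± 0.79, SE) and Igll1 (-4.34 ± 0.66, SE), which Ebf1 activates, and the pre-B gene Vpreb3 (-2.98 ± 0.59, SE) fell as well. So did the signalling genes Cd79a (-2.45 ± 0.38, SE), a chain of the B-cell receptor, Blnk (-3.60 ± 0.61, SE), the adaptor of the pre-B receptor, Blk (-1.75 ± 0.31, SE), a kinase, and Cd22 (-1.96 ± 0.34, SE), an inhibitory receptor. Il7r, the interleukin 7 receptor chain, fell by 3.70 ± 0.56 (SE), Fcrla, an Fc receptor-like protein of B cells, by 3.96 ± 0.54 (SE), and Cd24a, a surface protein that red-cell precursors also carry, by 3.16 ± 0.67 (SE). The limma adjusted p-values of these 11 genes ran from 0.0104 to 0.0409. Cplx2, a protein of vesicle release, did not pass (-0.86 ± 0.29, SE). The Igll1 probe set is of a kind that can detect related transcripts, and a unique one in its place moved by -0.55 (adjusted p = 0.127). Without Tie2-positive replicate 2 limma called 4 of the 18 genes (and 504 of all genes), and without Tie2-negative replicate 1 or 2 it called 0 (15 and 14 at an unadjusted p under 0.05).

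Other regulators of B-cell development did not share 1 direction. Of 20 measured, 1 fell, 3 rose and 16 did not pass, with a median change of 0.72. Spib, an ETS factor of B cells and plasmacytoid dendritic cells, was the single one to fall. It read 8.99, 10.14 and 7.84 in the Tie2-negative and 4.65, 5.34 and 4.89 in the Tie2-positive replicates (-4.03 ± 0.56, SE; limma adjusted p = 0.0143). Id2, an inhibitor of E proteins that opposes B-cell commitment and is also made by endothelium and myeloid cells, rose by 4.52 ± 0.46 (SE; limma adjusted p = 0.0104). It read 4.17, 4.38 and 5.55 in the Tie2-negative and 9.75, 8.55 and 9.38 in the Tie2-positive replicates, with no overlap. Xbp1, a factor of secretory cells, rose by 1.70 ± 0.22 (SE; limma adjusted p = 0.0125), and Mef2c, which acts in lymphoid and vascular cells, by 1.60 ± 0.34 (SE; limma adjusted p = 0.0400). Mef2c lost its call without Tie2-negative replicate 3 (adjusted p = 0.109) or Tie2-positive replicate 2 (0.112). The E protein gene Tcf12 (-0.22 ± 0.25, SE) did not pass. Myb, a factor of blood progenitors, did not pass either (-1.98 ± 1.85, SE): it read 11.07 to 11.41 in the Tie2-negative and 4.46, 11.39 and 11.90 in the Tie2-positive replicates, low in the same array as Ikzf1, without which its change was 0.42. Without Tie2-positive replicate 1 the regulators that rose numbered 7, when 1496 of all genes rose, against 884 on all 6 arrays. Without replicate 2 they numbered 2, when 375 of all genes rose. Without Tie2-negative replicate 3, 2 rose, and without Tie2-negative replicate 1 or 2 limma called 0 of the 20 (9 and 8 at an unadjusted p under 0.05).

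**Figure D4:**
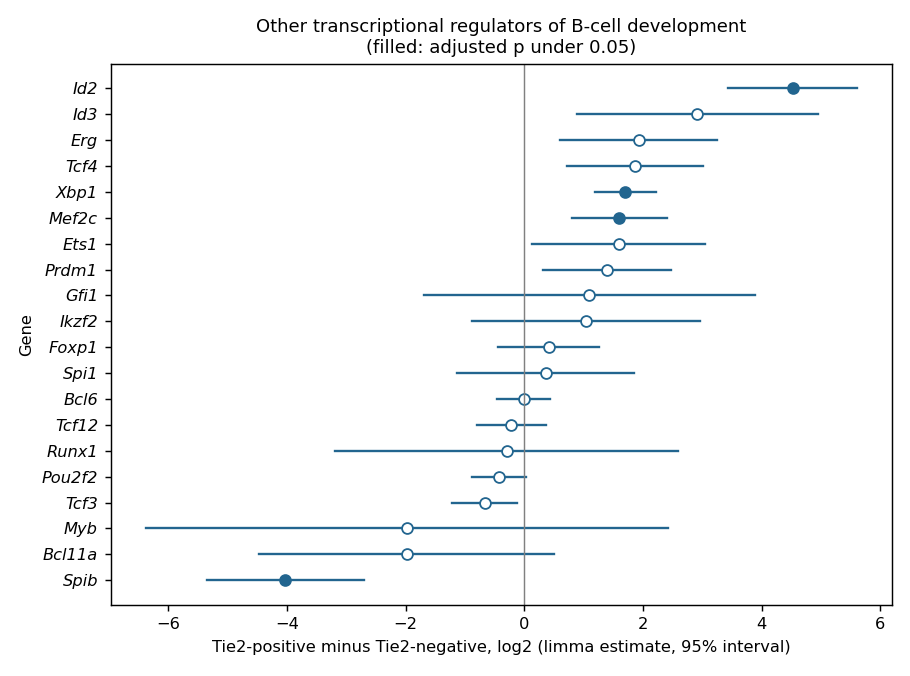
Change (horizontal axis, log2, Tie2-positive minus Tie2-negative) of 20 other regulators of B-cell development with 95% intervals from limma. Filled points were called: Id2, Xbp1 and Mef2c higher and Spib lower.

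Markers of other cells that could share these factors were read beside the members. Endothelial markers rose in 9 of 12 cases, with Kdr, a receptor of vascular endothelial growth factor, higher by 4.80 ± 0.57 (SE; limma adjusted p = 0.0110), while Egfl7 (1.62) and Eng (1.46) did not pass. Without Tie2-positive replicate 3 both did, at 2.24 and 1.91 (adjusted p = 0.049 and 0.0421). Of 13 neutrophil and monocyte markers 0 were called (limma, also 0 at an unadjusted p under 0.05), and the 3 with the highest mean, Ngp (1.75), S100a8 (2.38) and Mpo (3.06), did not pass. Without Tie2-positive replicate 1 all 3 passed and were higher, at 4.16 (adjusted p = 0.0285), 4.45 (0.00707) and 5.51 (0.0124). Mpo read 5.98, 12.50 and 14.11 in Tie2-positive replicates 1, 2 and 3. Of 10 T and NK cell markers 1 fell, Cd2 (-1.31 ± 0.25, SE; limma adjusted p = 0.032), named after its value was seen (list mean 5.52 to 5.63 in the Tie2-negative and 5.31 to 5.77 in the Tie2-positive arrays), and Zap70 (-0.56), Nkg7 (2.34) and Cd3e (-0.45) did not pass. Nkg7, a protein of cytotoxic granules, passed without Tie2-positive replicate 1, at 3.92 (adjusted p = 0.00176). Of 8 dendritic cell markers 0 were called (limma, 2 at an unadjusted p under 0.05; list mean 5.97 to 6.08 against 5.58 to 5.80), with Flt3 (-0.69), Cox6a2 (-0.43) and Siglech (0.11) not passing.

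Among 4 plasma cell markers Mzb1, an endoplasmic reticulum protein that B-cell precursors also make, fell by 4.33 ± 0.48 (SE; limma adjusted p = 0.0104), while Sdc1 (-0.52) and Tnfrsf17 (-0.13) did not pass (list mean 6.44 to 6.74 against 5.21 to 5.47). Of 9 erythroid markers 6 fell, Ermap by 4.31 ± 0.63 (SE; limma adjusted p = 0.0162), and Klf1 (-3.62) and Slc4a1 (-5.06) did not pass (list mean 10.10 to 11.60 against 5.56 to 7.51). Klf1 passed without Tie2-positive replicate 1 (-2.49, adjusted p = 0.00771) or 2 (-4.53, 0.0465), and Slc4a1 without Tie2-positive replicate 2 (-6.31, 0.0462) or 3 (-3.60, 0.0484). Ermap lost its call without Tie2-negative replicate 3 (adjusted p = 0.0607). Of 11 stromal markers 2 rose, with Cxcl12 higher by 4.59 ± 0.52 (SE; limma adjusted p = 0.0105), while Lpl (2.22) and Col1a2 (0.85) did not pass (list mean 5.61 to 5.88 against 6.40 to 7.17). The scale is logarithmic and holds no marker at 0. The part of stromal cells, which also make Ebf1, in the Ebf1 values was not tested.

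For 4 members the genes most like them over the 6 arrays were listed, among 9088 other genes above the median level. This likeness is a description, since the arrays share their population and replicate. Those of Pax5 were Cacng2, Hnrnpk and Trp53inp1 (Pearson r from 0.985 to 0.993), and 21 genes had an r above 0.95. Irf8 was closest to Atg10, Bcl9 and Rnf146 (r from 0.954 to 0.978, 3 genes above 0.95). Foxo1 was closest to Strn4, Tmf1 and 4833439L19Rik (r from 0.980 to 0.983, 12 genes above 0.95). Lef1 was closest to Msh5, Srcap and Traf6 (r from 0.992 to 0.996), with 105 genes above 0.95. No early B gene was among these 12, but only the 3 closest genes of each member were read. The other genes above 0.95, such as those of Lef1, may include early B genes.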

How the data were processed

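RNA of 6 sorted samples was amplified in a double round and hybridised to Affymetrix mouse expression arrays, per the labels' protocols. The authors deposited 1 log2 value per probe set and array (45101 probe sets, 2.56 to 14.78). That the scale is log2 was read from the values, and the summarisation and normalization behind the deposited values are not given in the sources used here.

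The values were quantile normalized, because the upper quartile was 7.26 to 7.33 in the Tie2-negative and 7.45 to 7.53 in the Tie2-positive arrays. The normalization thus also removes a difference between the populations. After 64 control probe sets were left out, 34945 of 45037 named 1 gene by the platform annotation. For each of 18193 genes, the probe set of highest average level was kept. The linear models of limma 3.58.1 (R 4.3.3), with moderated variances that follow a mean trend, compared the populations in a two-sided test of population alone on all 6 arrays. P-values were adjusted by Benjamini-Hochberg over all genes, with a threshold of 0.05. The procedure was tested on simulated data. Precision is limited by the number of arrays.

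The members and lists were chosen with earlier results of these data known, and the 3 orders of arrays were chosen after seeing the values. Named genes were all members, the 3 genes of highest mean in each list, every called gene of the early B and regulator lists, the 3 genes most like each of 4 members, Ptprc and Tek. Some listed genes were not analysed here. Each of 17 alternative settings changed 1 choice.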

Additional observations from a re-analysis of the deposited data

How the results depend on the processing

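The counts of called members (2 lower, 0 higher), early B genes (11 lower) and other regulators (1 lower, 3 higher) stayed within 1.5 times of these values with the values as deposited, with median-centred arrays, above the 40th percentile of mean level, over the mean of all probe sets, without x_at and s_at probe sets, with all probe sets tested, and with eBayes without trend or robust. With array weights they were 5, 0, 17, 2 and 8, but calls also rose over all genes. Limma then called 4639 of all genes (2462 lower, 2177 higher), against 1345 without weights (461 lower, 884 higher). In the fit with a replicate block limma gave 0 members, 0 early B genes and 0 other regulators (0 of all genes, smallest adjusted p 0.0521, with 3, 16 and 11 at an unadjusted p under 0.05). Whether same-numbered arrays were paired was not settled. Deviations of same-numbered arrays from their population means correlated at 0.140, 0.0050 and 0.186. Tie2-positive replicates 1 and 3 correlated best with the Tie2-negative array of the same number, and Tie2-positive replicate 2 with Tie2-negative replicate 3. Leaving out 1 array gave 0 to 4 members lower, 0 to 11 early B genes lower, 0 to 1 regulators lower and 0 to 7 higher. Over all genes it gave 0 to 2148 calls. The alternative with replicate 1 as the single Tie2-positive array, assumed to vary as the Tie2-negative arrays do, was added after seeing the data. The B-only minus shared difference of -0.073 was -2.13 above the 40th percentile of mean level, where Pax5 drops out, -1.34 with array weights, and -1.90 to 0.24 without 1 array.

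Signs turned only in changes that had not passed. Foxo1 was 0.04 with centred arrays and -0.72 to 0.16 without 1 array, and Irf8 was -0.61 with array weights and -0.34 to 0.56 without 1 array. The change without 1 array ran from -3.30 to 0.42 for Myb, from -0.13 to 0.28 for Siglech and from -2.38 to 0.80 for Ptprc. Sdc1 was 0.44 over the mean of its probe sets. With that single Tie2-positive array Ebf1 was 0.37, Foxo1 0.99, Irf8 -0.076, Tcf12 0.25, Ngp -3.07, S100a8 -1.77, Mpo -1.82 and Nkg7 -0.82. Pou2af1 and Irf4 kept their sign in all 17 settings and did not pass in 3 of them each (the block, and without Tie2-negative replicate 1 or 2), with adjusted p up to 0.0659 and 0.0665. The cause of these shifts was not tested. Levels near the bottom of the scale carry no detection call, which limits the sizes of the Pou2af1, Irf4 and Rag1 changes as well as what can be read from Pax5 and Ikzf3.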
